A study of Mus musculus with 44 samples.

Results

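The constitutive proteasome subunit genes were followed across 43 lymphomas and 1 spleen of Eµ-myc mice, a strain that expresses a Myc transgene from the enhancer of the immunoglobulin heavy chain in B lineage cells and develops B cell lymphomas. Members were the genes whose probe set carries 1 symbol that starts with Psma, Psmb, Psmc or Psmd and a digit, without the interferon-inducible Psmb8, Psmb9 and Psmb10. This gave 36 of 12393 genes. Of these, 35 have the names of proteasome subunits: 8 of the alpha ring (Psma), 7 of the beta ring (Psmb), 6 ATPases of the base (Psmc) and 14 non-ATPases of the regulatory particle (Psmd). The remaining member, Psmc3ip, was caught by its name and encodes a meiotic recombination factor. Psmd5, Psmd9 and Psmd10 have subunit names but encode chaperones that assemble the base.

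All samples carried the Eµ-myc transgene, the spleen included, and the labels name no treatment, age or transgene-free control. Mice were killed when they showed lymphoma or illness, and RNA came from frozen tissue or frozen cell pellets. The labels do not say which sample followed which route, whether each lymphoma came from a different animal, or whether the spleen was free of lymphoma. The p-values below therefore measure the spread between these samples only.

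The proteasome is the protease that degrades ubiquitin-tagged proteins. Its 20S core consists of outer alpha rings and inner beta rings, and Psmb6, Psmb7 and Psmb5 encode the caspase-like, trypsin-like and chymotrypsin-like catalytic subunits. The 19S regulatory particle binds ubiquitin chains, unfolds the substrate with the Psmc ATPases and feeds it into the core. In immune cells Psmb9, Psmb10 and Psmb8 take the places of these catalytic subunits and form the immunoproteasome, which is known for the peptides it makes for antigen presentation.

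Each sample was hybridised to 1 Affymetrix array, and each value is a log2 level per probe set. The arrays formed 2 sets on different scales: 36 lymphomas titled D34 to D117 (set 1, column medians 6.21 to 6.45), and 7 lymphomas titled D121 and higher with the spleen (set 2, medians 6.85 to 7.01). Fits therefore carried the set as a covariate, and values called centred are minus the mean of the lymphomas of the set. Levels of different probe sets are not comparable with each other. The mean level of 7 pan-B markers was 6.28 to 10.66 in the set 1 lymphomas and 9.03 to 10.85 in those of set 2. Lymphoma D92 was at the low end, at 6.28, the same as the median of all probe sets of its set (6.28).

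All 36 members passed the filter on low values, which kept 8721 genes, and all 36 would have passed without the spleen. On every array 35 of them lay above the median of their set, and the exception was Psma8, the alpha subunit gene known from the testis, which did so on 2 of 44. Psma8 ranged from 3.38 (lymphoma D59) through a median of 3.80 to 6.68 (D55) in set 1, and from 4.11 through 4.28 to 7.41 (D133) in set 2. Apart from D55, D133 and D80 (6.23), no lymphoma was more than 1 log2 unit above its set mean, and the spleen was at 4.82. The other alpha subunit genes had no such isolated high values.

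The members varied little between lymphomas. The SD of centred values over 43 lymphomas had a median of 0.23 over the members and of 0.34 over all genes tested. An SD of at least 0.5 was found for 1 member, Psma8 (SD 0.75), whereas 26.2% of all genes tested reached it. The next highest SDs were those of Psmd8 (SD 0.40), Psmd7 (SD 0.40), Psmd9 (SD 0.38) and Psmc1 (SD 0.34). The lowest were those of Psmd11 (SD 0.12), Psma4 (SD 0.15), Psmc6 (SD 0.15), Psma5 (SD 0.16) and Psmd14 (SD 0.17). The inducible Psmb8 (SD 0.43) and Psmb9 (SD 0.59) varied more than the constitutive Psmb5 (SD 0.23) and Psmb6 (SD 0.20), a description for which no test was run, while Psmb10 (SD 0.28) and Psmb7 (SD 0.23) lay closer together.

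Single lymphomas stood out for single genes. Psma7, an alpha ring gene, had a centred value of -1.18 in D81. Psmc3 in D52 stood at -0.77, and Psmb2 in D69 at 0.72. In the same arrays the mean of the 35 subunit genes was -0.18 for D81, -0.06 for D52 and 0.02 for D69, so these values lay far from the mean of the group.

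**Figure D1:**
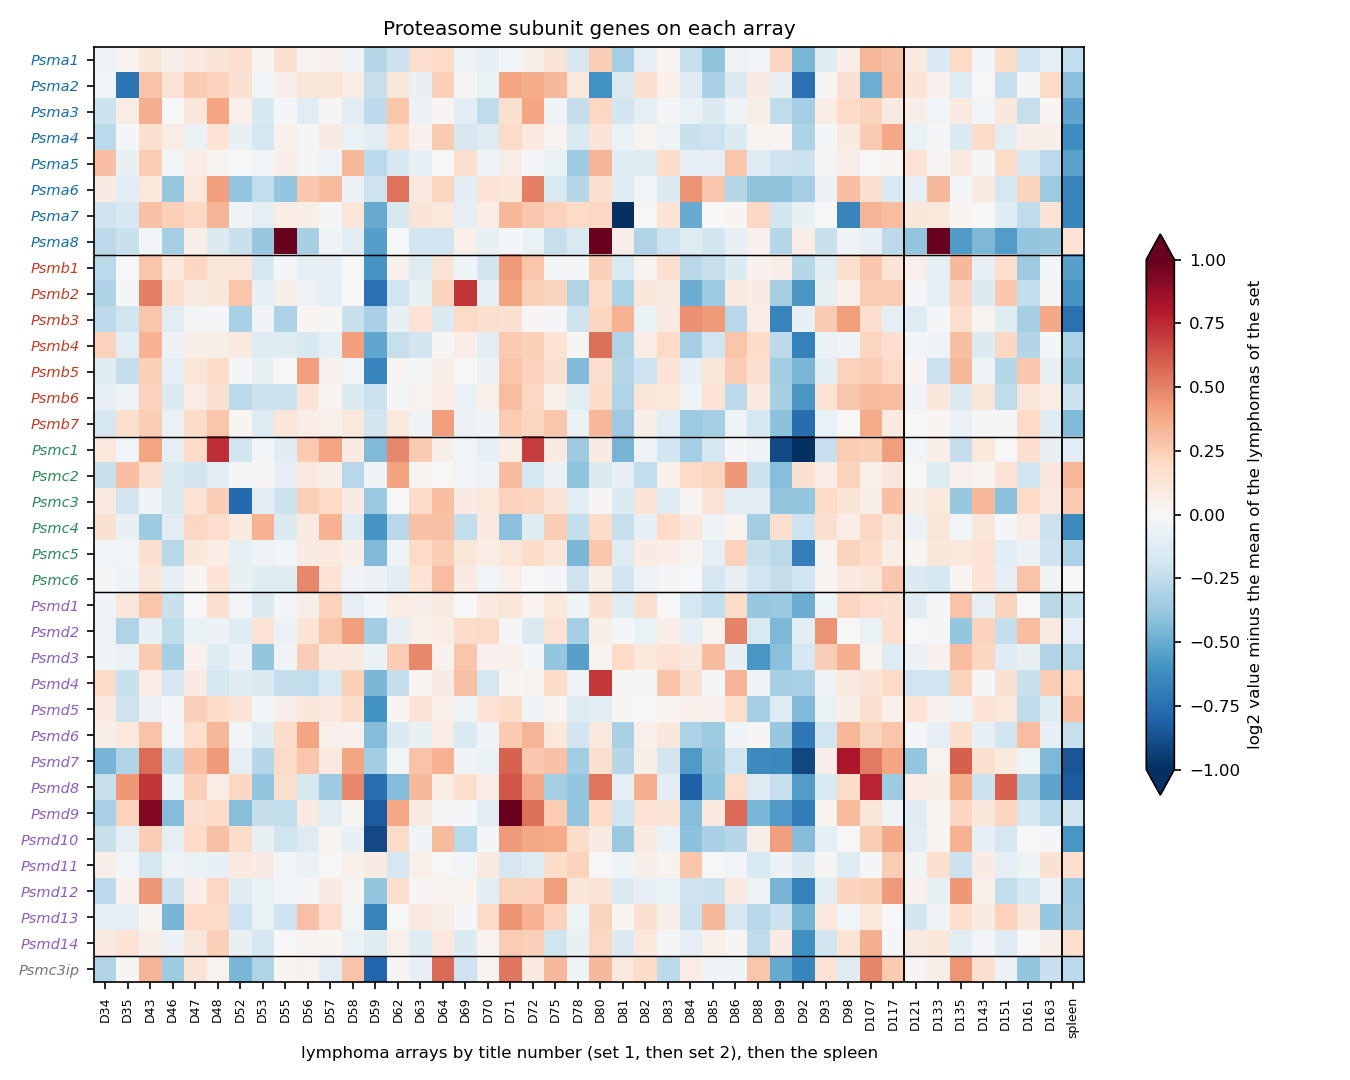
Centred log2 values of the 36 members (rows, grouped by place in the proteasome) on 43 lymphoma arrays and the spleen (columns); red is above and blue below the mean of the lymphomas of the set, and colours are capped at 1 and -1. D59 and D92 are blue for most genes, and Psma8 has 3 isolated red cells.

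Most members rose and fell together over the 43 lymphomas, 36 of which were of set 1. Over the 595 pairs of the 35 subunit genes the mean Pearson r across 43 lymphomas was 0.33, with 536 pairs above 0, against a mean of 0.0085 over pairs of all genes tested. All these values share the arrays and their scaling, and D59 and D92, low for most of these genes, were included. The mean r was 0.47 within the beta ring, 0.36 within the base ATPases, 0.34 within the non-ATPases and 0.23 within the alpha ring. Between alpha and beta ring genes it was 0.36, above the value within the alpha ring itself, which holds Psma8.

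Psmc5, an ATPase of the base, followed the mean of the other subunit genes most closely (r = 0.88; 0.88 in set 1 and 0.84 in set 2). Psmd7 of the lid (r = 0.82), the catalytic Psmb7 (r = 0.81), Psmd6 of the lid (r = 0.80) and Psmd12 of the lid (r = 0.79) came next. Psmc2 (r = 0.14), Psma8 (r = 0.09) and Psmd11 (r = -0.18) did not follow it. In the 7 lymphomas of set 2 alone, Psmb7 had an r of -0.15 and Psmd6 of -0.09, while Psmd7 had 0.66. The likeness of Psmb7 and Psmd6 to the group therefore rested on set 1. The same held for Psmc1 (r = 0.77 over 43 lymphomas, -0.28 in set 2), Psmb5 (0.76, -0.06) and Psmb6 (0.74, -0.09). It also held for Psma2, Psma4, Psmb3, Psmc3, Psmc6, Psmd2, Psmd4 and Psmd14, all with a negative r in set 2. Psmc2, Psma8 and Psmd11 had a negative r there as well. The other members kept a positive r in set 2, among them Psmd9 (0.78, 0.64) and Psmd12 (0.79, 0.44). An r over 7 lymphomas is imprecise.

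The probe set chosen for a gene mattered. Of the 36 members, 17 had several probe sets, with 29 probe sets besides the ones used. Their r with the used one had a median of 0.43, with 6 above 0.7 and 12 under 0.3. Of these 12, 9 had a mean level in set 1 below the median of all probe sets. Psma7 (r = 0.96) and Psmd13 (r = 0.95) were read alike by their probe sets. Psmd11 was not: its 5 other probe sets had an r of -0.22 to 0.32 with the one used, which is of a kind that can match several transcripts. What is said of Psmd11 below holds for that probe set only. Psmd7 had an r of 0.01 and 0.02 with its others, at mean set 1 levels of 7.02 and 3.62. Psmb3 had an r of 0.39 with its other, at a level of 10.28. The probe sets used for Psma6 and Psmc2 are of a kind that can match other sequences.

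The mean of the 35 subunit genes was lowest in lymphoma D92, at a centred value of -0.43, with 33 of the 35 genes below the set mean. It was -0.38 in D59 (34 of 35 below), -0.30 in the spleen (28 of 35 below) and -0.26 in D89 (29 of 35 below). The highest values were 0.22 in each of D80, D71 and D43. The median lymphoma was at 0.02 and the SD was 0.15, so the spread had a longer arm towards low values. D59 had the highest mean of stromal and endothelial markers in set 1, at 10.66 against a set median of 5.32, and the highest of macrophage markers, at 10.19 against 6.36. D92 had the lowest mean of pan-B markers. D89 had one of the highest, at 10.50 (rank 3 of 36), with macrophage markers at 7.38 and stromal markers at 5.81. Over the 43 lymphomas the mean of the subunit genes had an r of 0.45 (rho 0.13) with the pan-B score, -0.46 (rho -0.31) with the stromal, -0.39 (rho -0.25) with the macrophage, -0.41 (rho -0.49) with the T cell and -0.34 (rho -0.41) with the plasma cell score, as a description over shared arrays. The part of these other cells in the low values was not tested, and in bulk samples fewer cells of a type and less RNA per cell cannot be told apart.

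Outside the lists used here, the genes most like the mean of the subunit genes over 43 lymphomas were Snrpb (r = 0.86), Polr2d (r = 0.84), Mrpl3 (r = 0.84), Dcun1d5 (r = 0.83), Atp5b (r = 0.82), Ssna1 (r = 0.82), Atp5g1 (r = 0.82), Snrpc (r = 0.82), Ndufa9 (r = 0.81) and Tdp1 (r = 0.81). Snrpb and Snrpc encode proteins of the spliceosome, Polr2d a subunit of RNA polymerase II, and Atp5b, Atp5g1 and Ndufa9 parts of mitochondrial ATP synthesis. In all, 123 such genes had an r over 0.7.

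Promoters are shown for 5 members that carry results below, as the 250 bases before the gene's start in RefSeq on build GRCm38.p6, 5′ to 3′ along the gene. Capitals mark the E-box CACGTG, the sequence that Myc with its partner Max binds, the core TGACNNNGC of the antioxidant response element, to which Nfe2l1 and Nfe2l2 bind, the ETS core CCGGAAG and the palindrome of the nuclear respiratory factor NRF1, each on either strand. Psmd8 (chr7:29180674-29180923, minus strand) had the steepest slope on Myc among the members, and Psmd9 (chr5:123227940-123228189, plus strand) the next. Psmb5 (chr14:54617996-54618245, minus strand), Psmc5 (chr11:106255935-106256184, plus strand) and Psmc1 (chr12:100109952-100110201, plus strand) had negative slopes on Nfe2l1 that passed. Such slopes were not particular to them: 35 of 36 members had a slope on Nfe2l1 below 0. The calls on Nfe2l1 were lost without lymphoma D59. Psmc5 also had a positive slope on Myc.
Psmd8: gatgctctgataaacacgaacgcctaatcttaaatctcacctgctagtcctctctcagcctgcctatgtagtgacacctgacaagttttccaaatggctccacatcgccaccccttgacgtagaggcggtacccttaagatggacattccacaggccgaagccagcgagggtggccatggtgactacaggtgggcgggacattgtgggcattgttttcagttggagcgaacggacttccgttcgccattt
Psmd9: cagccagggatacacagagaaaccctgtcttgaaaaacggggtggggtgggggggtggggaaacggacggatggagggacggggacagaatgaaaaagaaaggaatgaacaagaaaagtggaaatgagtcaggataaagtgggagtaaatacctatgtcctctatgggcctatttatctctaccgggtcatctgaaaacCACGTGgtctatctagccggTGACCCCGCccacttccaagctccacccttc
Psmb5: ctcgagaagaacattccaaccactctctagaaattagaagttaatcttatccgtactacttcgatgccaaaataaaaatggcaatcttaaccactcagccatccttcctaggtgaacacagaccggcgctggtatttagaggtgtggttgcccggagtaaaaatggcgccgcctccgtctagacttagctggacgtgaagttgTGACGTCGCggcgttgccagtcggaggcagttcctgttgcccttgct
Psmc5: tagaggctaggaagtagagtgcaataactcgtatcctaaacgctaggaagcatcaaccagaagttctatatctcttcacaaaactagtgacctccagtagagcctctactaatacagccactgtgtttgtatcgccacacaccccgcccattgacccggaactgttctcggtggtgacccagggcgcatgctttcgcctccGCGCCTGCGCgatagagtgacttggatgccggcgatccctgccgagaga
Psmc1: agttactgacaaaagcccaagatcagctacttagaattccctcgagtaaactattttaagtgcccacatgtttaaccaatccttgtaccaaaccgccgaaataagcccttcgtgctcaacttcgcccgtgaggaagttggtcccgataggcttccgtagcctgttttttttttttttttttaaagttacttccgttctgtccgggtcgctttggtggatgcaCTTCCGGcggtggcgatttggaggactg
In Psmd9 an E-box starts at position -51 and a TGACNNNGC match at -31, counted from the start of the gene. Psmb5 has TGACGTCGC at -47, Psmc5 the palindrome on the other strand at -49, and Psmc1 the ETS core on the other strand at -28. No capital stands in the Psmd8 window.

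Windows of 250 bases before to 50 after the start were searched for 11 motifs, chosen after the data had been seen. They were at hand for 29 of the 36 members. The E-box was in 2 of 29 members (6.9%), Psma4 and Psmd9, and in 8.09% of all 27025 genes in the table. TGACNNNGC was in 5 members (17.2%), namely Psmb5, Psmb6, Psmc6, Psmd9 and Psmd12, against 14% of all genes. The CCAAT box was in 12 members (41.4%) against 41.1% of all genes. For these motifs the members' share was near that of all genes.

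The ETS core CCGGAAG was in 11 of 29 members (37.9%) against 9.93% of all genes: Psma6, Psmc1, Psmc2, Psmc3ip, Psmc6, Psmd2, Psmd4, Psmd6, Psmd11, Psmd12 and Psmd13. Its longer forms ACTTCCGG and CCGGAAGTG, which overlap it, were in 6 (20.7% against 4.31%) and 3 (10.3% against 2.25%) members. The NRF1 palindrome was in 6 members (20.7%), namely Psma2, Psma3, Psma4, Psmc4, Psmc5 and Psmd14, against 5.19% of all genes. The YY1 core AAGATGGC was in Psma2, Psmb6 and Psmc5, or 10.3% against 3.19%. TGACTNAGC was in 1 member, Psmc6 (3.45% against 1.39%), and TGACTCAGC (0.503% of all genes), both contained in TGACNNNGC, and the ZNF143 motif (0.311%) were in no member's window. No test was run, all matches count both strands, and a match is not a bound site. All genes here are the 27025 with a promoter window, not the 8721 tested on the arrays. The share among the latter was not computed.

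The spleen, a single sample, was compared with the lymphomas first. No member was higher in the spleen and 3 were lower in the limma test at an adjusted p under 0.05 over all genes, where 7.6% of all genes were higher and 5.79% lower. The 3 were core particle genes: Psma4 and Psma5 of the alpha ring and Psmb3 of the beta ring. Of the 36 differences 29 were below 0, with a median of -0.32, against a median of -0.16 over all genes tested. With all column medians made equal the medians were -0.45 and -0.30 and 6 members were lower, as were 9.03% of all genes. Without the set in the fit the median over all genes was 0.42, 28 of 36 members lay above 0 and none was lower.

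Psma4 (chr9:54950781-54958034) stood at 11.78 in the spleen. The 7 lymphomas of its set ranged from 12.25 (D135) through a median of 12.38 to 12.59 (D143), all above the spleen. The difference was -0.62 ± 0.16 (SE; limma adjusted p = 0.00797). Psma5 (chr3:108256926-108279952) stood at 11.39 in the spleen and at 11.66 to 12.10, median 11.94, in the same lymphomas, again without overlap. The difference was -0.54 ± 0.18 (SE; limma adjusted p = 0.0378). Psmb3 (chr11:97703434-97713500) stood at 11.09 in the spleen and at 11.52 to 12.23, median 11.82, in the lymphomas. Its difference was -0.75 ± 0.26 (SE; limma adjusted p = 0.0454). A spleen value below all 7 set 2 lymphomas was common, as it held for 31% of all genes tested. For Psma4, Psma5 and Psmb3 the centred value of the spleen also lay below those of all 43 lymphomas. This was not particular to the calls: it held too for Psma3, Psma6, Psmc4 and Psmd8, which did not pass. For Psmd5 the spleen lay above all 43. The share of all genes with a spleen value beyond all 43 lymphomas was not computed, so these values are no support for the calls.

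The call on Psma4 held under every alternative but the fit without the set (adjusted p from 0.00193 to 0.835 over the limma alternatives). Psma5 was lost in that fit too, when all its probe sets were averaged, with quantile normalization, without D121 and with the spread of set 2 alone. Psmb3 was lost without the set, with no filter, quantile normalization, no intensity trend and the spread of set 2 alone. Without D59, 5 members were lower, where 7.48% of all genes were, Psma3 and Psmc4 being the added ones.

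The spleen lay below all 7 lymphomas of its set for 20 of 36 members, where this held for 31% of all genes, and above them for 3, where 19.6% did so. By class, it was below for 7 of 8 alpha ring genes, 6 of 7 beta ring genes, 2 of 6 base ATPases and 5 of 14 non-ATPases. Psmc2 (12.01 against 11.49 to 11.82), Psmd5 (9.74 against 9.19 to 9.58) and Psmd14 (12.22 against 11.93 to 12.17) were the ones above, none of which passed the test. Psmd14 encodes the deubiquitinase of the lid. The largest differences that did not pass were those of Psmd7 (-0.86 ± 0.42, SE; limma adjusted p = 0.166) and Psmd8 (-0.83 ± 0.42, SE; limma adjusted p = 0.181). Whether core and regulatory particle genes differ in this respect was not tested.

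The catalytic genes of the core were not among the calls. Psmb5 stood at 11.19 in the spleen and at 11.26 to 11.88 in the set 2 lymphomas (-0.36 ± 0.25, SE). Psmb7 stood at 10.97 against 11.30 to 11.61 (-0.44 ± 0.25, SE), and Psmb6 at 10.95 against 10.91 to 11.29 (-0.21 ± 0.22, SE). The spleen was below the range for Psmb5 and Psmb7 and inside it for Psmb6. Of their inducible counterparts, Psmb10 was lower in the spleen, at 9.51 against a lowest value of 10.45 and a median of 10.87 in the lymphomas (-1.27 ± 0.30, SE; limma adjusted p = 0.00223), while Psmb8 (-0.96 ± 0.45, SE) and Psmb9 (-0.85 ± 0.61, SE) did not pass.

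Among the partners of the proteasome, Psmf1, which encodes the inhibitor PI31, was higher in the spleen, at 9.98 against 8.69 to 9.32 (0.97 ± 0.33, SE; limma adjusted p = 0.0403), but not with equal column medians (adjusted p = 0.0991) or with its probe sets averaged (adjusted p = 0.0849). None of the other 3 cap and inhibitor genes passed. For all 6 assembly genes tested the spleen was below all 7 set 2 lymphomas, with a median difference of -1.01, and none passed. The most negative were Psmg3 (-1.19 ± 0.42, SE; limma adjusted p = 0.0537) and Psmg4 (-1.10 ± 0.41, SE), which pair up as a chaperone of the alpha ring. None of 8 shuttle and deubiquitinase genes and none of 6 transcription factor and processing genes passed, nor did Sem1 of the lid (-0.25 ± 0.15, SE).

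Markers of other cells were higher in the spleen. Erythroid markers were higher for 7 of 7 (mean level 11.86 against 5.16 to 5.28 in the set 2 lymphomas), neutrophil markers for 7 of 9 (13.06 against 5.74 to 9.90) and plasma cell markers for 3 of 7 (10.99 against 6.79 to 9.48). The erythroid count is no support, because the filter on low values included the spleen. In the lymphomas the mean of these markers was at most 4.94 in set 1 and 5.28 in set 2. The medians of all probe sets were 6.28 and 6.90. Single genes of the other lists can have passed in the same way. With the filter on lymphomas alone, 6.37% of all genes were higher in the spleen. Stromal markers were higher for 4 of 12 (9.21 against 5.75 to 6.70) and macrophage markers for 1 of 10 (9.85 against 6.16 to 9.99). None of 7 pan-B and 9 T cell markers differed past the threshold (8.65 against 9.03 to 10.85, and 6.65 against 6.61 to 9.25). The proliferation gene Mki67 stood at 13.59 in the spleen and at 12.29 to 12.90 in the lymphomas. The part of these cells in the proteasome differences was not tested.

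**Figure D2:**
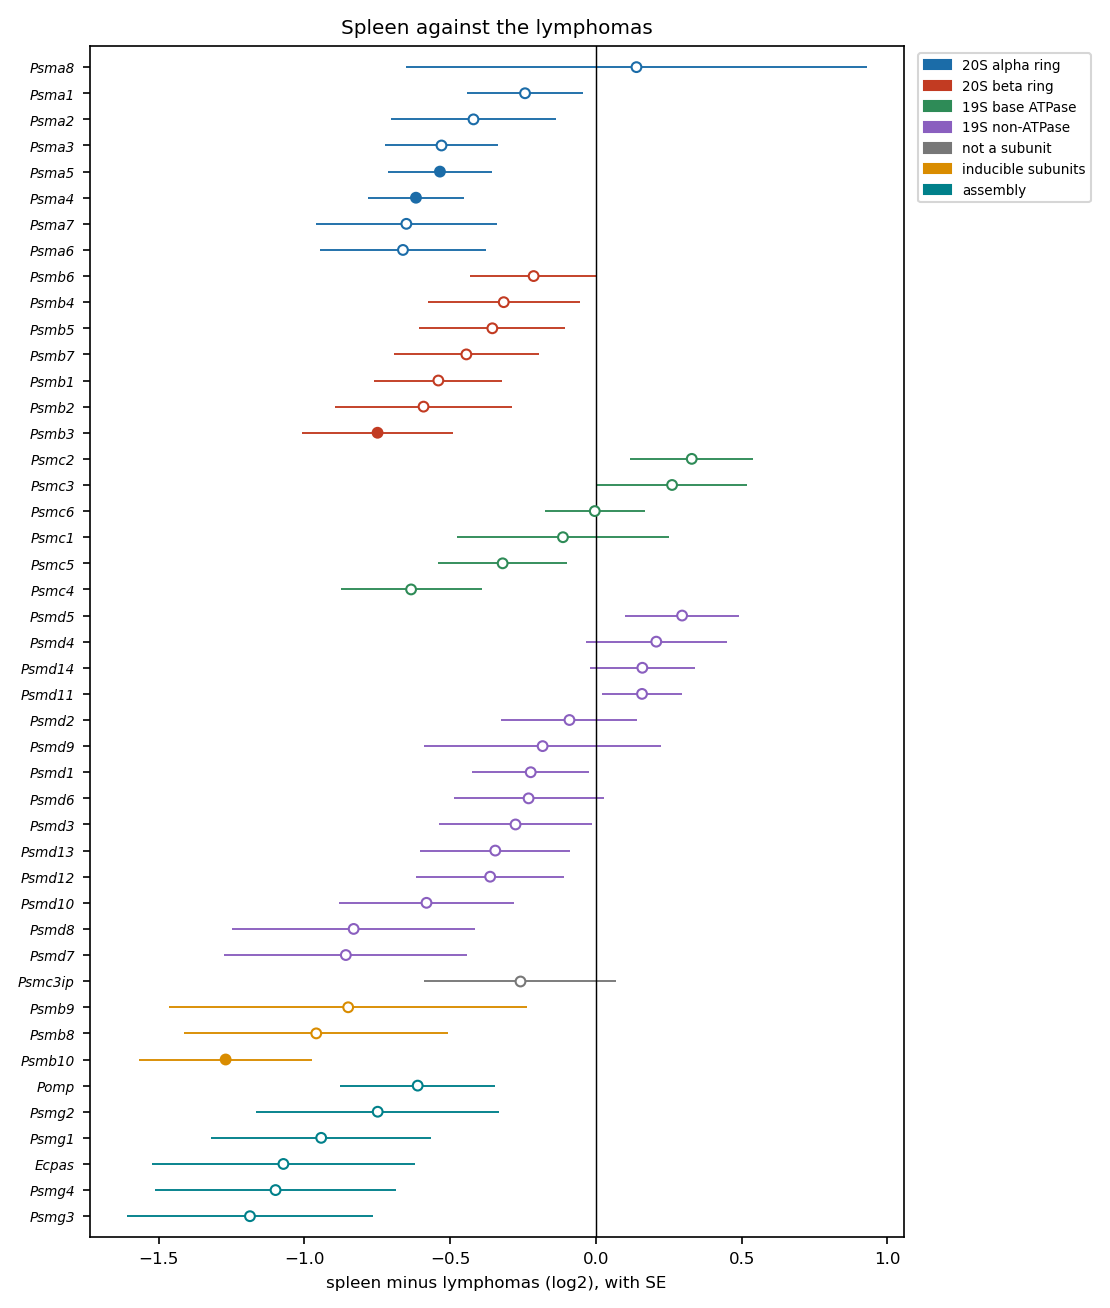
Spleen minus lymphomas in log2 (x axis, limma fit with the array set, bars are SE) for the 36 members, the inducible subunits and the assembly genes, coloured by class; filled points passed an adjusted p of 0.05. The filled points among members are Psma4, Psma5 and Psmb3, and all 7 beta ring genes lie below 0.

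The second comparison asked how the members followed Myc, the transgene of the model, over the 43 lymphomas. The array does not tell transgenic from endogenous Myc mRNA. Myc ranged from 9.15 (D88) through 10.54 to 11.44 (D43) in set 1 and from 9.90 (D163) through 11.22 to 11.78 (D151) in set 2. With the set in the fit, 8 members had a positive slope and 1 a negative one at an adjusted p under 0.05, where 26.4% of all genes had a positive and 16.9% a negative slope. At 8 of 36 the members' share was close to the background. The median slope was 0.08 for members and 0.03 for all genes tested.

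Of the 8, 6 were Psmd genes: the non-ATPase subunits Psmd8, Psmd7, Psmd3, Psmd1 and Psmd13 of the regulatory particle, and the chaperone Psmd9. The others were Psma5 of the alpha ring and Psmc5 of the base. None of the 7 beta ring genes passed, although all 7 slopes were above 0. The steepest was that of Psmd8 (chr7:29174187-29180673), a lid subunit, at 0.49 ± 0.08 log2 per log2 unit of Myc (SE; limma adjusted p = 2.8e-06).

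Psmd8 was lowest in D84 (centred value -0.81), had a median of 10.81 and reached 11.57 (D107) in set 1, and ran from 11.31 (D163) through 11.90 to 12.43 (D151) in set 2. The set 2 lymphomas with the least and the most Psmd8 were thus the ones with the least and the most Myc. In D43, the set 1 lymphoma with the most Myc (centred value 0.98), Psmd8 was at 0.71. In D88, with the least Myc (-1.31), Psmd8 was at -0.13, well above D84, where Myc was at -0.60. The slope passed under all alternatives except the fit to the 7 lymphomas of set 2 (0.54; adjusted p from 4.53e-08 to 0.0884 over the limma alternatives).

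Psmd9, the base chaperone with the E-box and the TGACNNNGC match in its promoter window, had a slope of 0.36 ± 0.09 (SE; limma adjusted p = 0.000949). It was highest in D71 (centred value 1.06; Myc 0.66) and D43 (0.92), and lowest in D59 (-0.83; Myc -0.57). Psmd7 had a slope of 0.28 ± 0.10 (SE) and Psmd3 of 0.23 ± 0.06 (SE), both of the lid. Psmc5 (0.16 ± 0.05), Psma5 (0.16 ± 0.04), Psmd1 (0.16 ± 0.05) and Psmd13 (0.15 ± 0.06) had smaller slopes (SE). Psmd11 had the negative slope, -0.08 ± 0.03 (SE; limma adjusted p = 0.0399), and it was 0.011 when its probe sets were averaged.

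None of the catalytic genes passed: Psmb5 had a slope of 0.02 ± 0.06 (SE; 95% interval -0.11 to 0.14), Psmb6 of 0.01 ± 0.06 (SE; -0.10 to 0.12) and Psmb7 of 0.11 ± 0.06 (SE; -0.01 to 0.23). The other members with the most negative statistics, Psma2 (-0.09 ± 0.07, SE), Psma7 (-0.05 ± 0.08) and Psma4 (-0.01 ± 0.04), did not pass. Psma4 is the other member with an E-box in its promoter window. Nor did Psmc4 (0.00 ± 0.06, SE) and Psmb3 (0.00 ± 0.07).

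**Figure D3:**
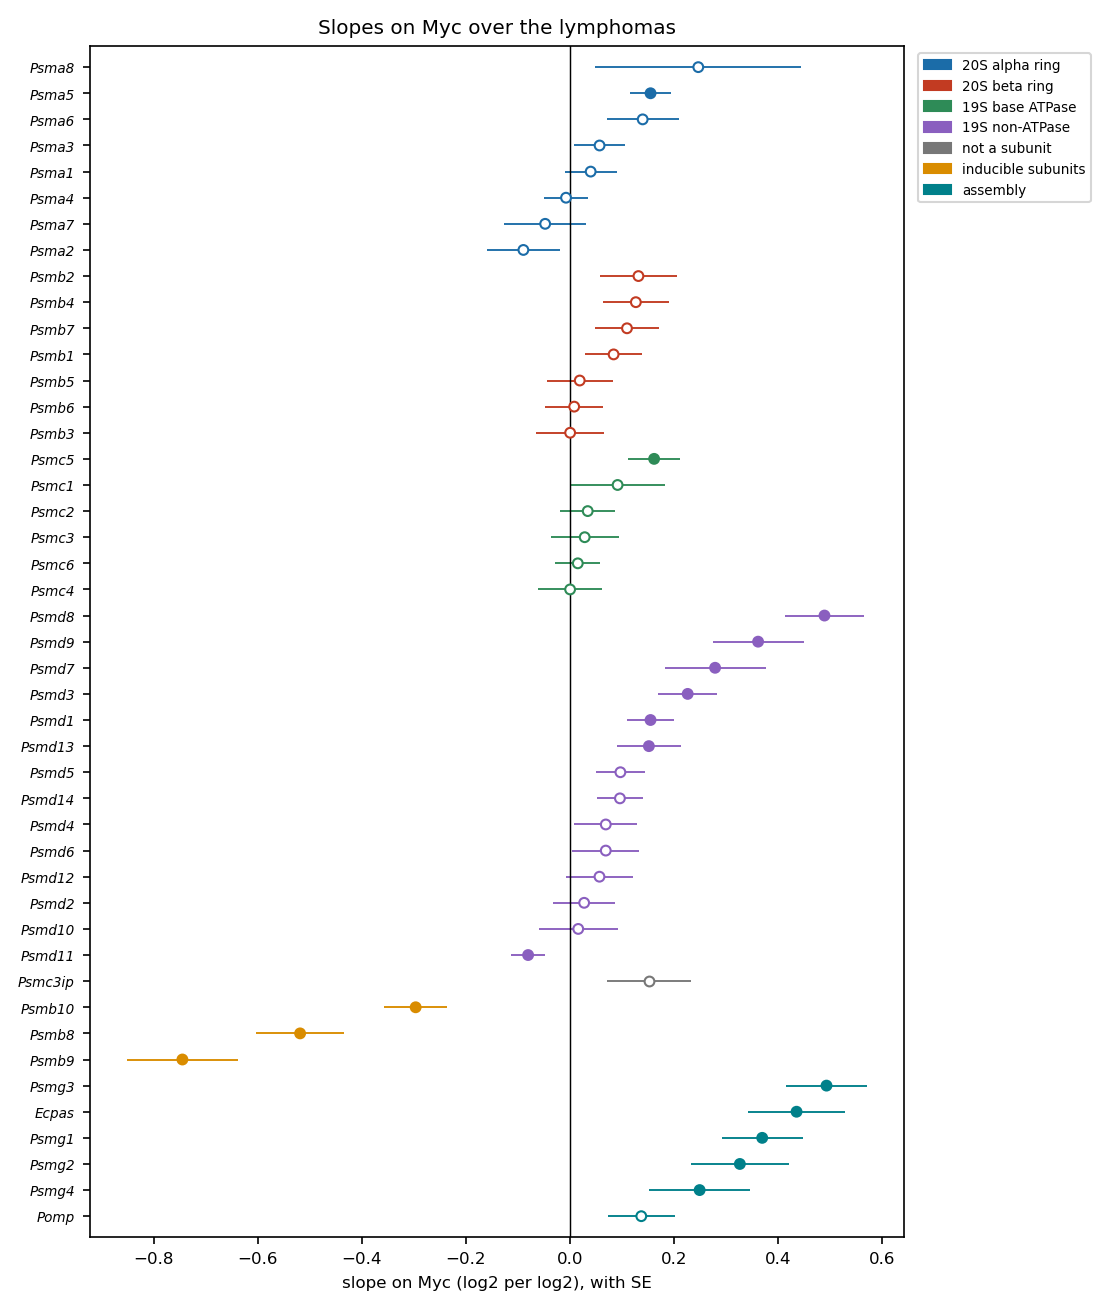
Slope on Myc in log2 per log2 (x axis, limma fit with the array set, bars are SE) for the 36 members, the inducible subunits and the assembly genes, coloured by class; filled points passed an adjusted p of 0.05. The inducible subunits lie between -0.74 and -0.30, and Psmd8 is the member farthest to the right, at 0.49.

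Assembly genes rose with Myc in 5 of 6 cases, with a median slope of 0.35. They were Psmg3 (0.49 ± 0.08, SE), Ecpas (0.44 ± 0.09), which encodes the scaffold protein Ecm29, Psmg1 (0.37 ± 0.08), Psmg2 (0.33 ± 0.09) and Psmg4 (0.25 ± 0.10). Pomp, the maturation protein of the core, did not pass (0.14 ± 0.06, SE; limma adjusted p = 0.0785). Of 4 caps and inhibitors, Psme3, the nuclear cap PA28 gamma (0.37 ± 0.07), and Psmf1 (0.21 ± 0.08) rose, and Psme1, the interferon-inducible PA28 alpha (-0.20 ± 0.06), fell. Psme4 did not pass.

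Of 8 shuttle and deubiquitinase genes 4 rose, namely Uchl5 (0.45 ± 0.07, SE), Ubqln4 (0.44 ± 0.06), Ube3c (0.24 ± 0.06) and Rad23b (0.15 ± 0.05), and Txnl1 (-0.13 ± 0.05) fell. Of 6 transcription factor and processing genes 2 fell, Nfe2l2 (-0.21 ± 0.09, SE) and Vcp (-0.10 ± 0.03), and none rose. Nfe2l1 had a slope of -0.11 ± 0.06 (SE). Sem1 did not pass. None of the 5 ubiquitin and activating enzyme genes on the list had a usable probe set, and they were not analysed here.

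All 3 inducible subunit genes fell with Myc: Psmb9 by a slope of -0.74 ± 0.11 (SE; limma adjusted p = 1.1e-06), Psmb8 of -0.52 ± 0.08 (SE; limma adjusted p = 5.76e-06) and Psmb10 of -0.30 ± 0.06 (SE; limma adjusted p = 0.000129). In D117 and D88, low in Myc at -1.18 and -1.31, Psmb9 stood at 1.34 and 0.90, whereas in D43 it stood at -0.61. Within the pairs the levels did not follow each other: the r over 43 lymphomas was -0.002 for Psmb5 and Psmb8, -0.009 for Psmb6 and Psmb9, and -0.031 for Psmb7 and Psmb10.

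The inducible minus the constitutive gene of each pair was then set against Myc. These differences were chosen after the slopes of the single genes had been seen, so they are described with no test. For Psmb8 minus Psmb5 the r was -0.63 (rho -0.56), for Psmb9 minus Psmb6 -0.70 (rho -0.63) and for Psmb10 minus Psmb7 -0.64 (rho -0.61). Within set 1 the r was -0.63, -0.67 and -0.65, and within the 7 lymphomas of set 2 it was -0.62, -0.90 and -0.62. Without the 2 lymphomas farthest from the median of Myc it was -0.57, -0.65 and -0.64. The slope of each difference is by construction the inducible slope minus the constitutive one, so these values are no separate support. For the first difference it was -0.54, beside slopes of -0.52 for Psmb8 and 0.02 for Psmb5 taken singly.

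**Figure D4:**
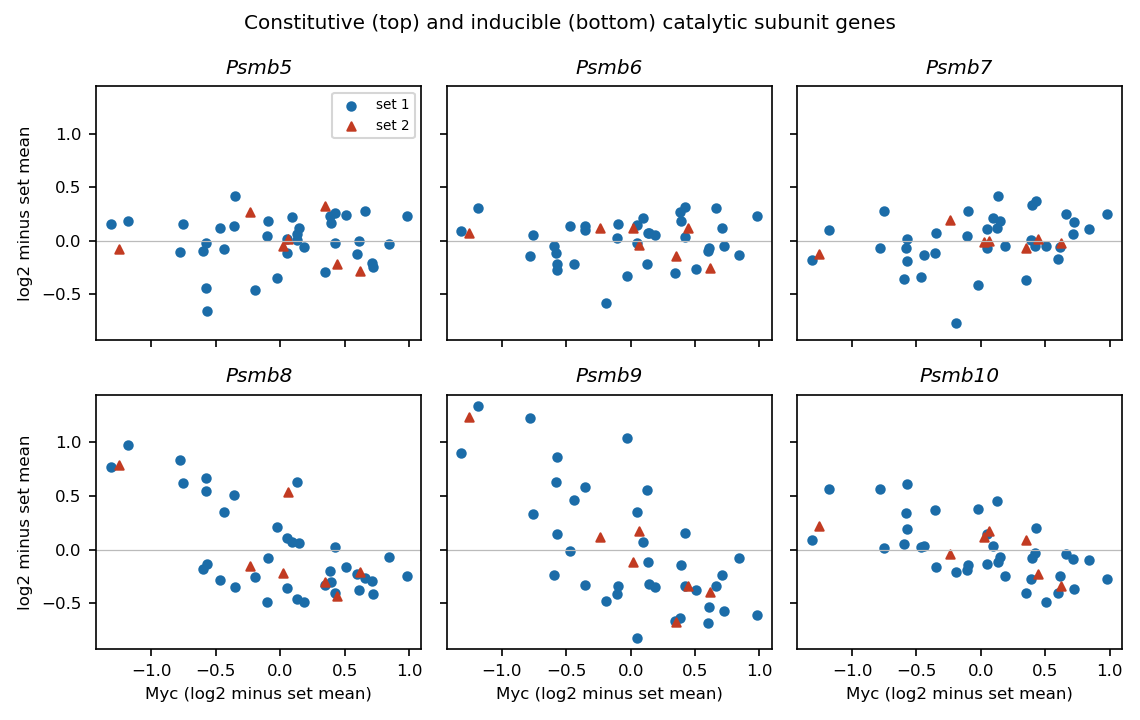
Centred log2 value of the constitutive catalytic genes (top) and their inducible counterparts (bottom) against centred Myc (x axis) in the 43 lymphomas; circles are set 1 and triangles set 2. The slopes are 0.02, 0.01 and 0.11 in the top panels, none past the threshold, and the bottom panels fall, with slopes of -0.52, -0.74 and -0.30.

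Markers of other cells moved with Myc. In bulk samples, other cells and lymphoma cells that express such markers themselves cannot be told apart. T cell markers passed with a negative slope for 7 of 9, macrophage markers for 5 of 10 and plasma cell markers for 6 of 7, while none of 12 stromal, 7 erythroid and 9 neutrophil markers passed and 1 of 7 pan-B markers, Cd79a, had a positive slope. The mean of the plasma cell markers had an r of -0.80 with Myc, that of the T cell markers -0.71 and that of the macrophage markers -0.41, as a description over arrays that share both. With the T cell, macrophage and stroma scores in the fit, 2 members passed with a positive slope, Psmd8 (0.58; limma adjusted p = 0.000872) and Psma5 (0.23; limma adjusted p = 0.00684), where 3.76% of all genes passed with a positive and 2.35% with a negative slope. The plasma cell score, whose r with Myc was -0.80, was not among the covariates of that fit. In that fit 20 of the 36 slopes lay above 0. Of the other 6 members that rose without the scores, Psmd9 was at 0.22, Psmd3 at 0.14, Psmc5 at 0.11, Psmd7 at 0.08, Psmd1 at 0.07 and Psmd13 at -0.02. Psmb8 (-0.22), Psmb9 (-0.31) and Psmb10 (-0.14) did not pass in that fit (limma adjusted p = 0.161, 0.137 and 0.317), and of the assembly genes Psmg1 and Psmg3 did. With equal column medians 16 members passed with a positive slope, where 33.8% of all genes did, and with quantile normalization 5, where 23.1% did.

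The third comparison took the immunoproteasome level, the mean of Psmb8, Psmb9 and Psmb10, as the predictor. No member rose with it and 5 fell, where 17.6% of all genes had a positive and 24.7% a negative slope, so the members' share of negative slopes was under the background. The 5 were Psmd3 (-0.36 ± 0.08, SE; limma adjusted p = 0.000196), Psma6 (-0.39 ± 0.08; 0.000261), Psmd9 (-0.39 ± 0.13; 0.016), Psmd1 (-0.18 ± 0.07; 0.0265) and Psmd13 (-0.22 ± 0.09; 0.0358). The median slope of members was -0.05 and that of all genes -0.06.

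The displaced catalytic genes did not follow the inducible ones in either direction. Psmb5 had a slope of -0.03 ± 0.09 (SE; 95% interval -0.21 to 0.14), Psmb6 of -0.01 ± 0.08 (SE; -0.16 to 0.15) and Psmb7 of -0.03 ± 0.09 (SE; -0.21 to 0.14). The members with the most positive statistics, Psmd11 (0.11 ± 0.05, SE; limma adjusted p = 0.0581) and Psma7 (0.24 ± 0.11, SE; limma adjusted p = 0.0621), did not pass. Without D59, Psma7 passed and was the 1 member with a positive slope. Psma7 was lowest in D81, at -1.18.

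Psme1 rose with the inducible subunits (0.48 ± 0.07, SE; limma adjusted p = 5.79e-07), while the other caps Psme3 (-0.41 ± 0.11) and Psme4 (-0.41 ± 0.17) fell. Of 6 assembly genes 3 fell, Psmg3 (-0.64 ± 0.12, SE), Ecpas (-0.63 ± 0.13) and Psmg1 (-0.31 ± 0.13), and of 8 shuttles and deubiquitinases 3 fell, Uchl5 (-0.63 ± 0.10), Ubqln4 (-0.58 ± 0.09) and Ube3c (-0.34 ± 0.08). Vcp, the segregase that hands substrates to the proteasome, rose (0.14 ± 0.05, SE) as 1 of 6 transcription factor and processing genes.

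The same marker lists moved here: 7 of 9 T cell, 7 of 10 macrophage, 5 of 7 plasma cell and 2 of 7 pan-B markers rose with the immunoproteasome level, and none of the stromal, erythroid or neutrophil markers passed. With the T cell, macrophage and stroma scores in the fit no member passed, and 0.791% of all genes passed with a positive and 0.356% with a negative slope. In that fit Psmd3 was at -0.31, Psma6 at -0.21, Psmd9 at -0.17, Psmd1 at -0.03 and Psmd13 at 0.07. With Myc in the fit 1 member passed with a negative and 3 with a positive slope, where 4.43% and 6.31% of all genes did, and 22 of the 36 slopes lay above 0.

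The last comparison took Nfe2l1, which encodes a transcription factor known to raise proteasome gene transcription when the proteasome is inhibited. No member rose with Nfe2l1 mRNA and 11 fell, where 11.3% of all genes had a positive and 11.6% a negative slope. Of the 36 slopes 35 lay below 0, with a median of -0.35, against -0.12 over all genes. The 11 were Psmd13, Psmc5, Psmc3ip, Psmb5, Psmd5, Psmd9, Psmc3, Psmc4, Psmc1, Psma6 and Psmd10, and 4 of them are base ATPases. All 11 calls were lost when D59 alone was left out: 0 members then passed, with a median slope of -0.25, and 1.17% of all genes had a positive and 0.378% a negative slope.

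Nfe2l1 ranged from 7.80 (D47) through 8.15 to 9.21 (D59) in set 1 and from 8.61 (D161) through 8.73 to 8.98 (D163) in set 2. D59 was 1.05 above its set mean, and the next highest lymphoma was D78, at 0.25. Psmd13 fell with Nfe2l1 by a slope of -0.60 ± 0.15 (SE; limma adjusted p = 0.00287) and stood at -0.66 in D59, its lowest value. Without D59 the slope was -0.55 (limma adjusted p = 0.147; 0.00119 to 0.833 over all alternatives). Psmb5 had a slope of -0.52 ± 0.15 (SE; limma adjusted p = 0.00991), was also lowest in D59, at -0.65, and had -0.38 without it (adjusted p = 0.319). Psmc5 (-0.47 ± 0.13), Psmc3ip (-0.69 ± 0.20), Psmd5 (-0.38 ± 0.12) and Psmd9 (-0.78 ± 0.25) were the others with the most negative statistics (SE).

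**Figure D5:**
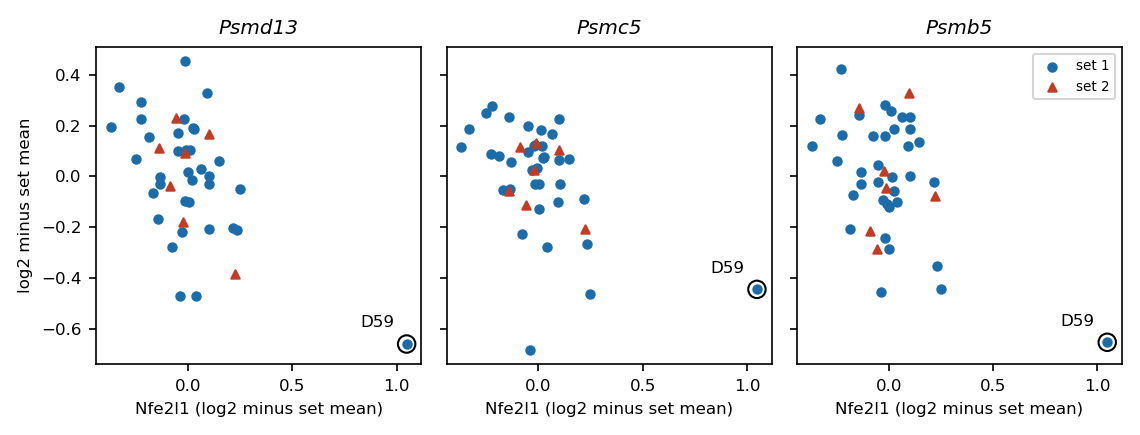
Centred log2 values of Psmd13, Psmc5 and Psmb5 against centred Nfe2l1 (x axis) in the 43 lymphomas; circles are set 1, triangles set 2, and lymphoma D59 is ringed. D59 lies at 1.05 on the x axis, apart from all other lymphomas.

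Psmf1 (-0.91 ± 0.17, SE; limma adjusted p = 0.000108) and Psme3 (-0.66 ± 0.21) also fell with Nfe2l1, as did Psmg1 as 1 of 6 assembly genes and Ufd1 as 1 of 5 processing genes. These 4 calls too were lost without D59 (limma adjusted p from 0.0924 for Psmf1 to 0.285 for Psme3), with slopes of -0.78 for Psmf1, -0.58 for Psme3, -0.70 for Psmg1 and -0.54 for Ufd1. None of the 3 inducible subunits and none of 8 shuttles and deubiquitinases passed. Stromal and endothelial markers rose with Nfe2l1 for 11 of 12 and macrophage markers for 8 of 10, and D59 is the array with the highest levels of both. With the T cell, macrophage and stroma scores in the fit no member passed, their median slope was -0.16, and 0.115% of all genes passed with a positive and 0% with a negative slope. The part of these cells in the slopes was not tested.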

How the data were processed

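The deposited table held log2 expression values of 22690 probe sets on 44 arrays, which the authors made with RMA in the affy package, per the submitters' processing notes (versions not given in the sources used here). The labels do not say whether the 2 array sets were normalized together. Arrays have no read depth, and their number limits the precision. Of the probe sets, 20380 with 1 symbol in GEO's platform annotation were used (691 had several, 1555 none, 64 were controls), and the one with the highest mean stood for a gene. Genes above the median of the set on 1 or more arrays were kept. Slopes and the spleen difference came from limma 3.58.1 in R 4.3.3 (lmFit, eBayes with an intensity trend, two-sided, Benjamini-Hochberg over all genes tested, threshold 0.05), with the set as a covariate. The spleen fit used the spread of the lymphomas. A predictor was left out of the genes tested. The script was tested on simulated data. The members, gene lists and alternatives were chosen with earlier results of these data known, and the pair differences, the motifs and the leaving out of single lymphomas were added after seeing the data. Named with values were, per comparison, the 6 members with the most positive and the 6 with the most negative statistic, or those that passed, the 5 highest and 5 lowest SDs, the catalytic genes, up to 4 genes per pathway list and the 10 genes most like the subunit mean. In the Myc comparison more than 4 assembly genes and more than 4 shuttle and deubiquitinase genes were given with values, beyond this rule. Members outside this rule were named after their values were seen. They were those with isolated values, those for which the spleen lay above the set 2 lymphomas, and those in motif lists. Of the 36 members, all matched RefSeq (GRCm38.p6) by Entrez identifier, and 29 had a promoter sequence in its table. Alternatives concerned the filter, probe sets, scaling, the set, eBayes, array weights, the 3' minus 5' control difference, other-cell scores, second genes and single lymphomas. The other-cell scores were those of T cells, macrophages and stroma, without the plasma cell score.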

Additional observations from a re-analysis of the deposited data

How the results depend on the processing

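Each comparison was repeated under 17 to 22 alternatives. For the 62 values of members and pathway-list genes that passed the threshold above, 1339 values came from alternatives. Of these, 993 kept direction and side of the threshold, 306 kept the direction but not the call, and 40 reversed. Values that were named without having passed are not in these counts. Where no cause is named, the cause was not tested. No paired analysis was possible because the spleen and the lymphomas share no replicate number.

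Without the set, the scale of the sets enters every value. Members lower in the spleen were then 0, and members rising with Myc, the immunoproteasome level and Nfe2l1 were 27, 24 and 25, where 47.2%, 50.8% and 65.9% of all genes rose, with 0 falling in each, and the median SD was 0.35. In that fit Psma5 in the spleen was 0.064, the slopes on Myc were 0.036 (Psmd11), 0.027 (Psme1), 0.043 (Txnl1) and 0.087 (Vcp), and those on the immunoproteasome level 0.044 (Psma6), 0.19 (Psmd1), 0.33 (Psmd13), 0.12 (Psmd9), 0.055 (Psme4), 0.24 (Psmg1), 0.058 (Psmg3) and 0.085 (Ube3c). The slopes on Nfe2l1 were 0.33 (Psma6), 0.49 (Psmb5), 0.41 (Psmc3), 0.40 (Psmc3ip), 0.24 (Psmc4), 0.35 (Psmc5), 0.41 (Psmd10), 0.63 (Psmd13), 0.44 (Psmd5), 0.34 (Psmd9), 0.31 (Psmf1), 0.54 (Psmg1) and 0.46 (Ufd1).

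The 3 members lower in the spleen became 6 with equal column medians (9.03% of all genes), 1 with quantile normalization (5.99%), 8 with array weights (15.4%), 5 with the 3' minus 5' difference (6.51%), 1 with the set 2 lymphomas alone (2.69%) and 6 without D59 and D92 (7.92%), and 2 to 5 when D55, D59, D92 or D121 was left out. The 8 members rising with Myc became 16 with equal medians (33.8%), 5 with quantile normalization (23.1%), 2 with other-cell scores (3.76%) and 0 in set 2 alone (7 lymphomas, 0.195%), and were 7 to 9 when one of these lymphomas was left out. The 1 falling member, Psmd11, was lost (0 members) with averaged probe sets (slope 0.011), equal medians, no intensity trend, array weights, other-cell scores, either set alone and ranks.

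For the immunoproteasome level, 1 member rose with quantile normalization, the 3' minus 5' difference, ranks, and without D59 or D59 and D92 (15.4% to 19.6% of all genes), and 3 with Myc in the fit (6.31%). The 5 falling members became 10 with the 3' minus 5' difference (26.3% of all genes), 3 in set 1 alone (20.3%), 0 in set 2 alone (0.264%), 0 with other-cell scores (0.356%) and 1 with Myc (4.43%), and were 4 to 6 with single lymphomas left out. The 11 members falling with Nfe2l1 became 0 with array weights, other-cell scores, ranks, set 2 alone, without D59 and D92, without D55, D59, D92 and D121, and without the 2 farthest lymphomas, where 0% to 1.17% of all genes fell, and 6 with Myc (4.72%). With single lymphomas left out they were 0 (without D59) to 14.

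Other reversals were Psmd13 with other-cell scores (-0.017 on Myc, 0.070 on the immunoproteasome level), Psmg1 with Myc (0.14 on the immunoproteasome level) and with other-cell scores (0.13 on Nfe2l1), and in set 2 alone Nfe2l2 on Myc (0.0020) and, on Nfe2l1, Psmb5 (0.14), Psmc3ip (0.49), Psmd10 (0.45) and Ufd1 (0.078). Psmd10 on Nfe2l1 was also -0.50 to 0.0061 with single lymphomas left out, the latter without D59, 0.0011 without D59 and D92, 0.037 without D55, D59, D92 and D121, and 0.091 without the 2 farthest lymphomas.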
